A study of Mus musculus with 2 samples.

Results

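Smooth muscle and myofibroblast barcodes were taken from single-cell libraries of lungs from female Balb/C mice carrying an orthotopic K7M2 osteosarcoma, a tumour line of mouse bone. Mice had received 1V209-Cho-Lip, a preparation of 1V209, which is a synthetic ligand of the endosomal RNA sensor TLR7, or PBS. Lungs of 3 mice were pooled into 1 10x library per group, so each group was 1 sample, and dose, schedule and age are not given in the sources used here. Every cell of both groups came from a tumour-bearing host. With 1 library per group there was no test: the intervals given are 95% intervals for counting error only, and treatment, the pooled mice and the library cannot be told apart.

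A barcode was a member when it had at least 500 UMIs (unique molecular identifiers, counted mRNA molecules), 200 genes and at most 20% mitochondrial UMIs, and under 3% of its UMIs from S100a8 and S100a9. It also needed a UMI of at least 3 of the 7 genes Acta2, Myh11, Tagln, Cnn1, Actg2, Des and Hhip, at most 1 of the pericyte genes Cox4i2, Higd1b and Trpc6, under 20 UMIs of Def8, and no UMI of Ptprc, Cdh5 or Upk3b, which mark leukocytes, endothelium and mesothelium. This left 66 of 28280 kept barcodes: 34 of 13720 in the 1V209-Cho-Lip library and 32 of 14560 in the PBS library. The members held 79337 UMIs in the 1V209-Cho-Lip library and 68767 UMIs in the PBS library, with medians of 1842 and 1641 UMIs per barcode. No sequence was shared between members of the 2 libraries. Of the whole files 268 barcode sequences were shared, and 1 PBS member's sequence also occurred in the 1V209-Cho-Lip file.

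Smooth muscle cells shorten by sliding actin filaments, built from Acta2 and Actg2, along the myosin heavy chain Myh11, and their contractile genes are driven by serum response factor with myocardin. In the mouse lung such cells wrap airways and vessels. Myofibroblasts of the alveolar ducts carry part of the same machinery, sit at the rings where alveoli open, lay down elastin, and are known for Hhip, an inhibitor of hedgehog signalling, together with the proteoglycan asporin (Aspn).

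The promoters of 3 genes the results turn on are shown. Acta2 was lower in the 1V209-Cho-Lip members, Fos heads the immediate-early genes and Hhip was a gene of the rule. The lists used here hold Hhip as a marker of airway smooth muscle as well as of the duct myofibroblast. Each covers 250 bases before to 50 bases after the gene start in RefSeq on GRCm38.p6, 5′ to 3′ on the gene's strand. Capitals in Acta2 mark CArG boxes, the serum response factor motif, allowing 1 G or C among the 6 inner bases. Capitals in Fos and Hhip mark TGACG, the core of the cAMP response element, on either strand.
Acta2 (chr19:34255324-34255623, minus strand): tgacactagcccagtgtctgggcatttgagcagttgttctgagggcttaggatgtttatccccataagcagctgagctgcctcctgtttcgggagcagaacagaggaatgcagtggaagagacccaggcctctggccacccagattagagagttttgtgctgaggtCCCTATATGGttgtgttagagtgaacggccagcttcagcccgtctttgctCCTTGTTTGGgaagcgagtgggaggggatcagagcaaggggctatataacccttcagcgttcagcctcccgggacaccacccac
Fos (chr12:85473640-85473939, plus strand): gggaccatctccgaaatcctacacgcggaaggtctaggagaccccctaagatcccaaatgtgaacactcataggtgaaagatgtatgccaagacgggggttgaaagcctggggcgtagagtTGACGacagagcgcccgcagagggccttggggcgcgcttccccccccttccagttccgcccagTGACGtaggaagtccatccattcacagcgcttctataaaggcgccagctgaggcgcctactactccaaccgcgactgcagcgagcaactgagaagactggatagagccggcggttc
Hhip (chr8:80057959-80058258, minus strand): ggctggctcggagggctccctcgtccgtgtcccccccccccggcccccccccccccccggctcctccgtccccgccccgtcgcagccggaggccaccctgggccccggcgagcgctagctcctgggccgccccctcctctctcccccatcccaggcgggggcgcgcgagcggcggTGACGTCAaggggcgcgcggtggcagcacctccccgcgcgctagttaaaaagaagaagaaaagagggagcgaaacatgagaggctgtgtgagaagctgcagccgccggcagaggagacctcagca
Both Acta2 boxes overlapped no other match, and the 2 matches in Hhip overlapped within TGACGTCA, 1 on each strand. The relaxed CArG box occurred in 9.98% of 32851 promoters of this length and TGACG in 20.8%. No strict CArG box, which 1.63% of promoters held, was in any of the 8 promoters found among 13 genes looked for. A match describes letters in the window and is not a binding site shown here.

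Duct myofibroblast genes that the rule did not use were found in most members. Mustn1 had a UMI in 28 of 34 1V209-Cho-Lip members and 30 of 32 PBS members, Enpp2, which makes lysophosphatidic acid, in 29 of 34 and 29 of 32, and Aspn in 21 of 34 and 26 of 32. Of 16 vascular smooth muscle markers in the files, 8 had a UMI in the 1V209-Cho-Lip members and 11 in the PBS members, and the list summed to 3025 CPM (a gene's UMIs over all UMIs of the same barcodes, scaled to a common total) and 6369 CPM. Casq2, Art3, Olfr558, Sost and phospholamban (Pln) were at 0 in both. Mustn1 is on the vascular list as well as the duct list. It gave 1941 and 3577 CPM of the vascular sums, and elastin (Eln) gave 643 and 1774 CPM. Hhip and calponin (Cnn1) belong to the rule, so their counts only describe the members: Hhip had a UMI in 32 of 34 and 27 of 32, and Cnn1 in 2 of 34 and 1 of 32.

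Clustering the 66 members together, with the lists of stress, interferon and cytokine genes left out, put 8 barcodes (2 of the 1V209-Cho-Lip library, 6 of the PBS library) in a smooth-muscle-like subgroup led by Actg2, Acta2, Tpm2, Myh11, Tagln and Myl9. These genes define the subgroup, so their levels only describe it: Acta2 stood at 11385 CPM there, against 1226 CPM in the other members, and Cnn1 had 12 of its 13 UMIs there. Hhip ran the other way, with 1053 CPM in the subgroup and 2739 CPM in the other members. A subgroup of 28 barcodes, 11 and 17 of the libraries, was led by Fbxl7, Elmo1 and Kcnma1. One of 17 barcodes, 14 and 3 of the libraries, was led by Saa3, Gcc1, Csrnp1, Tnfaip6 and Myc, with Nr4a2, Maff and Atf3 among its first 10 genes, and one of 9 barcodes, 4 and 5, by H2-Aa and Cd74. These 3 stay unnamed. A last subgroup of 4 barcodes was led by the complement gene C7, Serpina3n and the fibroblast genes Inmt and Clec3b. The largest part of the 1V209-Cho-Lip members, 14 of 34, was in the subgroup of 17, and that of the PBS members, 17 of 32, in the subgroup of 28, so every ratio over all members compares these mixtures.

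The 4 barcodes led by C7 stood apart and touch several results. They were the members with 10 or more UMIs of Inmt, a gene of alveolar fibroblasts, and comprised 3 1V209-Cho-Lip members and 1 PBS member. They held 21.4% of the UMIs of the 1V209-Cho-Lip members and 20.3% of those of the PBS members. The PBS barcode alone had 13959 UMIs and was the deepest member of all. Log2 ratios without the deepest barcode of each library stand beside the genes for which it held much of the PBS UMIs.

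**Figure D1:**
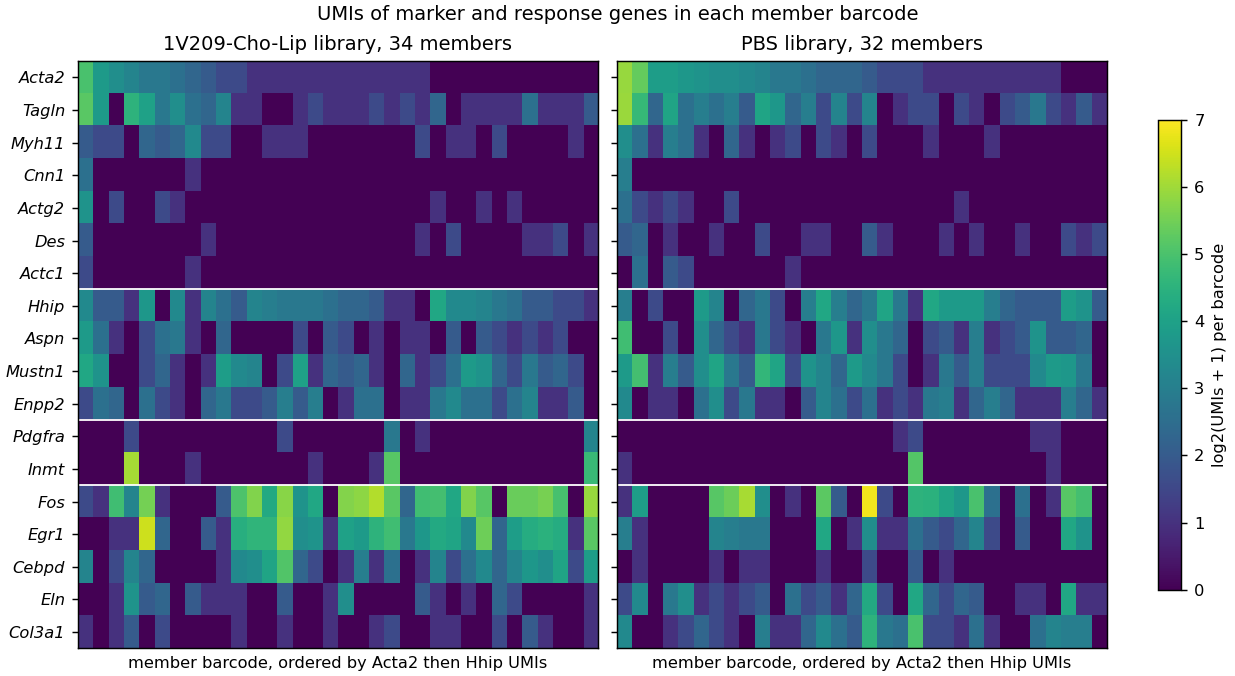
UMIs of 18 genes (rows) in each member barcode (columns), as log2(UMIs + 1), for the 34 members of the 1V209-Cho-Lip library (left) and the 32 of the PBS library (right), ordered by Acta2 and then Hhip UMIs. Hhip, Mustn1 and Enpp2 run across most columns of both panels, Cnn1 is seen in 2 columns on the left and 1 on the right, and the Cebpd row is filled mainly on the left.

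The members were rare in both libraries. They made up 0.248% (interval 0.172 to 0.346%) of kept barcodes in the 1V209-Cho-Lip library and 0.22% (0.15 to 0.31%) in the PBS library, a ratio of 1.13 (0.675 to 1.89). Among barcodes that met every exclusion of the rule the shares were 1.53% and 1.37%. Of the members, 11 of 34 in the 1V209-Cho-Lip library and 19 of 32 in the PBS library had 4 or more of the 7 genes. As shares of kept barcodes these were at a ratio of 0.61 (0.264 to 1.36). Just inside the threshold, 23 and 13 members had exactly 3 of the 7 genes, with Inmt at 2229 and 1112 CPM. Just outside it, 64 and 38 barcodes had 2 of the 7 genes, with Inmt at 6659 and 7567 CPM.

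The members held a minor part of each marker's signal in the libraries. They accounted for 28.3% of Hhip UMIs among kept barcodes of the 1V209-Cho-Lip library and 29.8% in the PBS library, and for 4.75% and 10.3% of Acta2 UMIs. Most other Acta2 UMIs, 1702 of 2148 in the 1V209-Cho-Lip library and 1594 of 2275 in the PBS library, were in barcodes with a UMI of Cdh5 or Ptprc, which the rule leaves out. In B-cell barcodes, which should lack it, Mustn1, a gene outside the rule, had a UMI in 1.68% of 773 barcodes in the 1V209-Cho-Lip library and 1.82% of 1701 in the PBS library, at medians of 2656 and 2223 UMIs per barcode. The members' shares were 82.4% and 93.8%. Acta2 had a UMI in 1.04% and 1.65% of B-cell barcodes and in 67.7% and 90.6% of members, shares that the rule itself raised.

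Between the libraries, 1179 genes had at least 20 UMIs over the members of both and were measured. Their median log2 ratio, 1V209-Cho-Lip over PBS with 0.5 counts added, was -0.03. A ratio of CPM of at least 2 was reached by 130 genes (11% of those measured) and a ratio of 0.5 or less by 139 genes (11.8%), and a gene is called higher or lower below in this sense only. These shares are the background for the counts of every list below. Those furthest above, beside the genes described below, included Tnfaip6, a secreted hyaluronan-binding protein, with 70 and 10 UMIs, the ETS factor Ets2 with 38 and 5 UMIs, the bZIP factor Maff with 38 and 7 UMIs, Ifrd1 with 81 and 12 UMIs, and Errfi1, an inhibitor of the EGF receptor, with 63 and 13 UMIs. The cytokine receptor gene Il31ra was also among them, with 110 and 23 UMIs, and its ratio of 4.14 in the members compares with 9.58 over all kept barcodes. In the 1V209-Cho-Lip library it stood at 1386 CPM in the members, 1377 CPM in B-cell barcodes and 1765 CPM over all kept barcodes. Ets2 stood at 479 CPM in these members and 536 CPM over all kept barcodes of that library, so neither level was particular to the members. Those furthest below, beside matrix genes, included the galectin Lgals1 with 30 and 89 UMIs, the creatine kinase Ckb with 12 and 36 UMIs and the focal adhesion scaffold Nedd9 with 9 and 35 UMIs.

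**Figure D2:**
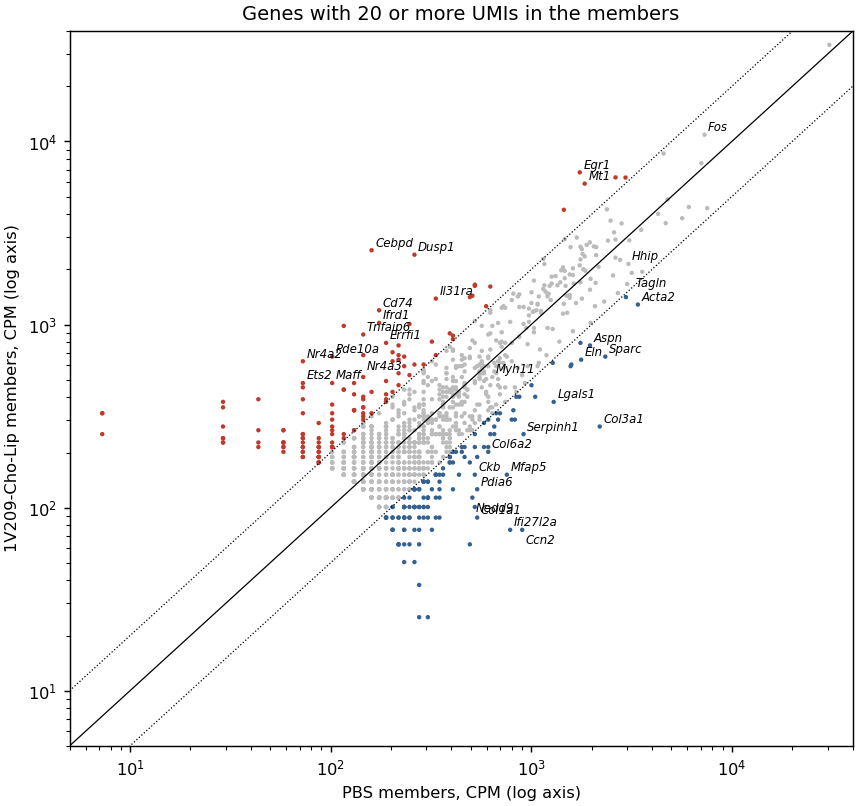
CPM of each of the 1179 measured genes in the 1V209-Cho-Lip members (vertical) against the PBS members (horizontal), both on log axes, with genes at least 2-fold higher in red and at least 2-fold lower in blue. Points of 0 are drawn at 0.5 counts. The solid line marks equal levels and the dotted lines 2-fold differences. Cebpd and Dusp1 lie far above the lines, Col3a1 and Ccn2 far below.

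Contractile genes were lower or little different. Of 18 measured genes of the actin filament, 4 were lower and 0 higher, beside 11.8% and 11% of all measured genes. Their median log2 ratio was -0.41. Acta2 ran from 0 through a median of 1 to 31 UMIs per barcode in the 1V209-Cho-Lip members, and from 0 through 3.5 to 59 UMIs in the PBS members. Its level was 1286 CPM and 3403 CPM, a ratio of 0.378 (0.296 to 0.479). The ranges overlap, and the rule itself used this gene. Acta2 reached 10 UMIs in 3 of 34 1V209-Cho-Lip members and 8 of 32 PBS members. The smooth-muscle-like subgroup of 2 and 6 barcodes held 32 of the 102 and 141 of the 234 Acta2 UMIs. Within it Acta2 stood at 7522 and 12886 CPM (ratio 0.584, 0.385 to 0.862). Of its 32 UMIs in the 1V209-Cho-Lip library 31 were in 1 barcode, so that side of the ratio rests on 1 barcode. The 32 and 26 other members had 932 and 1608 CPM (ratio 0.58, 0.419 to 0.799), so neither reached 2-fold.

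The other lower genes of this group were the tropomyosin Tpm2, with 24 and 57 UMIs, caldesmon (Cald1), with 32 and 58 UMIs, and Pdlim3, a Z-line protein, with 9 and 21 UMIs. The smooth-muscle-like subgroup held 4 and 34 of the Tpm2 UMIs. Without it the actin filament list stood at a median of -0.28 (0 of 16 higher, 1 lower). Tagln, an actin-binding protein, was at a ratio of 0.604 (0.488 to 0.747) with 1916 CPM in the 1V209-Cho-Lip members and 3170 CPM in the PBS members. Among 10 genes of myosin and its regulation, only the light chain Myl9 was lower, with 32 UMIs against 60 UMIs (ratio 0.462), and none was higher. Over all measured genes 11.8% were lower and 11% higher. Myh11 had 41 UMIs and 44 UMIs, a ratio of 0.808 (0.515 to 1.26), and outside the smooth-muscle-like subgroup 36 and 11 UMIs, a ratio of 2.52 (1.26 to 5.49). Actg2 had 19 UMIs and 14 UMIs, a ratio of 1.18 (0.559 to 2.54), and the intermediate filament desmin (Des) 12 and 25 UMIs, a ratio of 0.416 (0.19 to 0.859). Cnn1, with 6 and 7 UMIs, was too rare to compare.

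Few markers of the duct myofibroblast were called. Of 9 measured, 1 was higher and 2 lower, beside 11% and 11.8% of all measured genes. Hhip was at 2143 CPM in the 1V209-Cho-Lip members and 3054 CPM in the PBS members, a ratio of 0.702 (0.57 to 0.863). Aspn was lower, at 769 and 1963 CPM, a ratio of 0.392 (0.285 to 0.534). So was P2ry14, a receptor for UDP-sugars, with 17 and 42 UMIs. Enpp2 had 111 and 107 UMIs and the cadherin Cdh4 30 and 25 UMIs, each within 2-fold. The higher one was Pdgfra, the PDGF receptor also carried by alveolar fibroblasts, with 19 UMIs in 5 of 34 members against 5 UMIs in 4 of 32 members. Over both libraries 18 of its UMIs were in the 4 barcodes led by C7 and 6 in all other members.

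Matrix genes formed the largest group below. Of 19 measured collagen and basement membrane genes, 10 were lower and 0 higher (median log2 ratio -1.001). Col3a1, a chain of fibrillar collagen, ranged from 0 through a median of 0 to 3 UMIs per barcode in the 1V209-Cho-Lip members and from 0 through 2.5 to 31 UMIs in the PBS members. It was found in 15 of 34 and 26 of 32 barcodes, and its ratio was 0.126 (0.0768 to 0.198). No 1V209-Cho-Lip member passed 3 UMIs. Col1a1, with 7 and 37 UMIs, Col6a1, with 17 and 36 UMIs, Col6a2, with 16 and 42 UMIs, and Col6a3, with 15 and 32 UMIs, were also lower. Elastin (Eln), which gives alveolar walls their recoil, was at 51 and 122 UMIs, a ratio of 0.362 (0.256 to 0.506).

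The deepest PBS barcode carried much of several matrix ratios. It held 88 of 161 PBS UMIs of Sparc, a collagen-binding glycoprotein, 37 of 63 of the collagen chaperone Serpinh1, 37 of 52 of the microfibril gene Mfap5 and 27 of 37 of the disulfide isomerase Pdia6. Without the deepest barcode of each library the log2 ratio of Sparc was -1.32 and of Mfap5 -0.95, and that of Serpinh1 -0.91. For Pdia6 it was -0.39. Col3a1 was at -3.01 and Eln at -1.77 without them, and the collagen list's median at -0.91. Without the smooth-muscle-like subgroup that median was -0.96, and in the subgroup of 28 it was -0.061 over 8 measured genes, 2 of them lower, with Col3a1 at a ratio of 0.153 (0.0476 to 0.382).

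Genes that respond to TGF-beta or mark activated myofibroblasts did not move one way. Of 17 measured, 3 were higher and 5 lower, beside 11% and 11.8% of all measured genes. Ccn2, a secreted target of TGF-beta and of YAP, was found in 5 of 34 and 9 of 32 members with 6 and 62 UMIs, a ratio of 0.0839 (0.0297 to 0.193), and 28 of the 62 were in the deepest PBS barcode. Its log2 ratio was -3.47, and -2.80 without the deepest barcodes, but 0.26 where 2 marker genes were enough for a member. Ccn1, of the same family, had 134 and 144 UMIs.

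Immediate-early genes were the main group above. Of 18 measured, 13 were higher and 0 lower, with a median log2 ratio of 1.31. Egr1, a zinc-finger factor, ranged from 0 through a median of 12.5 to 87 UMIs per barcode in the 1V209-Cho-Lip members and from 0 through 1.5 to 17 UMIs in the PBS members, a ratio of 3.89 (3.18 to 4.78). Dusp1, a phosphatase that switches off MAP kinases, had 191 and 18 UMIs, a ratio of 9.20 (5.67 to 15.8). The orphan receptors Nr4a2, with 50 and 5 UMIs, and Nr4a3, with 54 and 10 UMIs, were higher, as was Atf3 with 336 and 100 UMIs. Fos was high in both libraries, at 10890 CPM and 7315 CPM, and its ratio of 1.49 (1.33 to 1.66) was under 2-fold. The list's median was 0.66 in the 17 and 15 members with Myh11. It was 0.22 in the 11 and 19 members with 4 or more of the rule's genes. Both subsets were chosen by the rule's own genes and held fewer barcodes, so their medians may not cover the same 18 genes. Whether this list goes with more complete contractile genes was therefore not tested. The list's median was 1.26 without the smooth-muscle-like subgroup. In the 11 and 17 barcodes of the largest subgroup it was 0.18 over 12 measured genes, 5 of them higher, with Egr1 at a ratio of 2.69 (1.80 to 4.09) and Dusp1 at 4.34 (1.97 to 10.5). The subgroup of 17, which immediate-early genes helped to lead, held 14 of the 34 1V209-Cho-Lip members.

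Cebpd, a C/EBP factor of the acute-phase response, was the highest of the named genes. It had a UMI in 27 of 34 1V209-Cho-Lip members, up to 33 in 1 barcode, and in 8 of 32 PBS members, at most 3. The level was 2546 CPM and 160 CPM, a ratio of 15.9 (8.71 to 32.4), and no PBS member reached 5 UMIs, against 16 of 34 1V209-Cho-Lip members. Of 8 measured genes of the C/EBP and STAT3 group, Cebpd and Stat3 (54 and 15 UMIs) were higher and C3 lower (12 and 30 UMIs, 27 of the 30 in 1 PBS barcode, and a log2 ratio of 1.33 without the deepest barcodes). In the largest subgroup Cebpd was at a ratio of 17.5 (5.52 to 89).

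**Figure D3:**
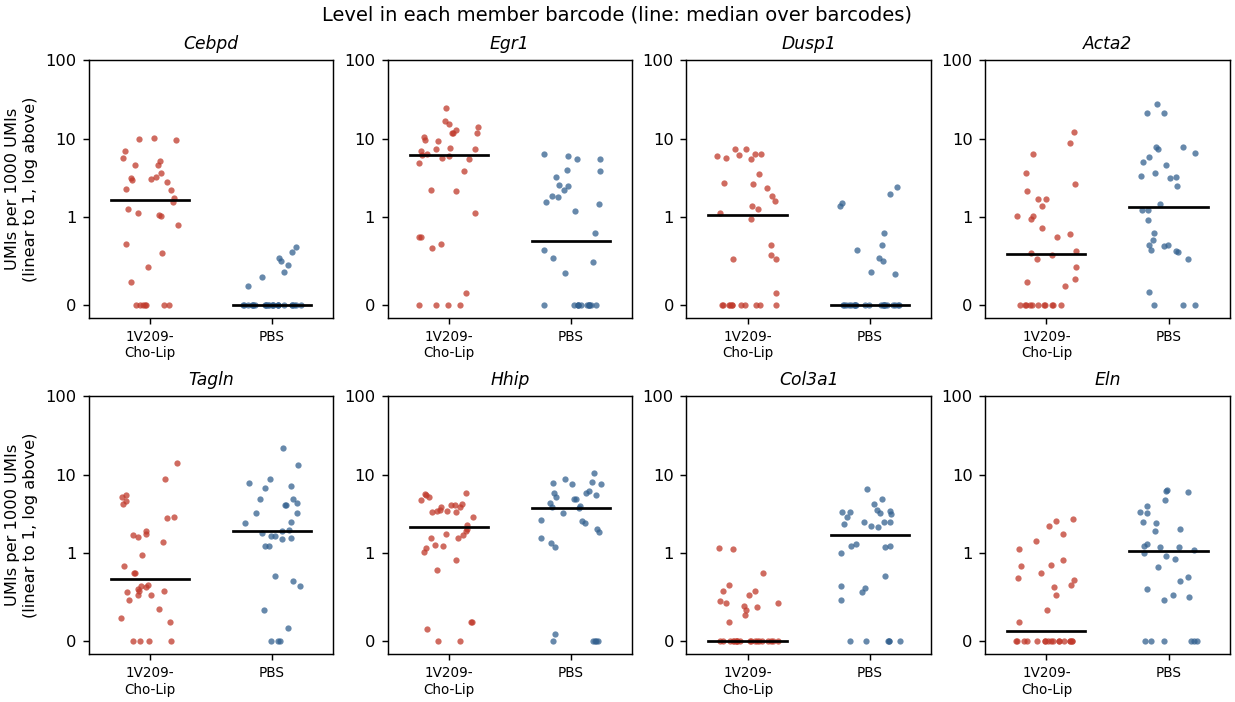
Level of 8 genes in each member barcode, in UMIs per 1000 UMIs (linear to 1, logarithmic above), for the 34 members of the 1V209-Cho-Lip library (left in each panel) and the 32 of the PBS library (right), with the median over barcodes as a line. Cebpd, Egr1 and Dusp1 are spread to higher values on the left, while Col3a1, Eln and Acta2 reach higher values on the right; in every panel the 2 groups overlap.

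NF-kB targets were also above. Of 9 measured, 7 were higher and 1 lower, the median log2 ratio being 1.499. Nfkbia, the inhibitor that NF-kB induces, had 112 and 34 UMIs (ratio 2.85, 1.93 to 4.32), the adhesion molecule Icam1 56 and 14 UMIs (ratio 3.47) and Birc3, an inhibitor of apoptosis, 33 and 9 UMIs. Il1b had 26 and 5 UMIs, but its level in members, 328 and 72.7 CPM, was far under that of all kept barcodes, 6185 and 1670 CPM. The chemokine Cxcl12 was lower, but 23 of its 24 PBS UMIs were in 1 barcode, and without the deepest barcodes its log2 ratio was 0.35. In the largest subgroup Nfkbia had 14 and 14 UMIs, a ratio of 1.5 (0.663 to 3.4). Among metallothionein, hypoxia and glucocorticoid genes 4 of 11 were higher and 0 lower, led in UMIs by Mt1, a zinc-binding protein, with 467 and 127 UMIs (ratio 3.19, 2.61 to 3.91).

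Neutrophil signal moved with these genes. S100a8 was at 454 and 72.7 CPM in the members and S100a9 at 983 and 116 CPM, while over all kept barcodes S100a8 stood at 14147 and 1903 CPM. The neutrophil list summed to 1689 CPM in the 1V209-Cho-Lip members and 218 CPM in the PBS members, with a UMI of 11 and 4 of its 17 genes, and its defining genes Ly6g, Mmp9 and Camp were at 0 in both. Their part in the result was not tested. Dusp1 was as high over all kept barcodes (2543 and 339 CPM) as in the members (2407 and 262 CPM). Egr1 was not, with 1253 and 316 CPM over all kept barcodes against 6781 and 1745 CPM in the members.

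Few genes of the interferon lists could be measured, and none of those was higher. Of 36 type I interferon-stimulated genes 26 had a UMI and 7 were measured. Ifit1, Mx1, Rsad2 and Usp18 were at 0 in both libraries, so most of the list could not be compared. Of the 7 measured, 0 were higher and 3 lower: Ifi27l2a, Irf7 and Bst2. Over all measured genes 11% were higher and 11.8% lower. For Ifi27l2a 52 of the 54 PBS UMIs, for Irf7 16 of 19 and for Bst2 16 of 27 were in 1 barcode. Without the deepest barcodes the log2 ratios were 0.75 for Ifi27l2a, -0.87 for Irf7 and -0.16 for Bst2, none of them 2-fold. Ifitm3, which blocks viral entry, had 179 and 191 UMIs, a ratio of 0.812 (0.659 to 1.00). Of 7 interferon-gamma and antigen presentation genes, 1 was lower and 0 higher, and the median log2 ratio of -0.42 became 0.42 without the deepest barcode of each library. Cd74, the invariant chain of MHC class II, was among the highest named genes with 95 and 12 UMIs, but 84 of the 95 were in 1 member, a called doublet: with called doublets left out its log2 ratio was -0.50. The sensor itself was hardly seen. Tlr7 had 1 UMI in the 1V209-Cho-Lip members and 0 in the PBS members, where 3 counts would be 43.6 CPM, and none of 20 genes of endosomal sensing reached 20 UMIs.

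**Figure D4:**
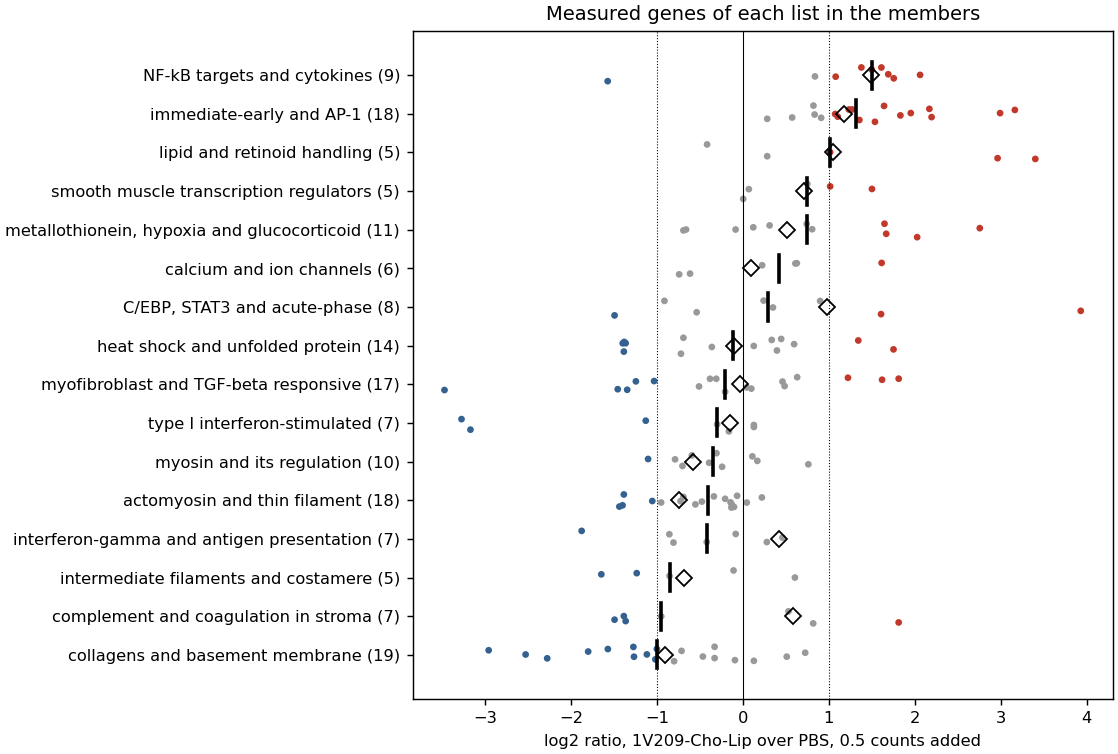
Log2 ratio, 1V209-Cho-Lip over PBS with 0.5 counts added, of each measured gene (points) in 16 gene lists, with the list's median (bar), the median without the deepest barcode of each library (open diamond) and the number of measured genes in brackets. Red points are at least 2-fold higher and blue at least 2-fold lower. NF-kB and immediate-early genes lie to the right, collagens to the left, and the diamonds of antigen presentation and complement lie on the other side of 0 from their bars.

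Fibroblast genes were above too, with most UMIs of Inmt, Tcf21, Npnt and Pdgfra in the 4 barcodes with 10 or more Inmt UMIs. Over both libraries Inmt had 160 UMIs in those barcodes and 5 in all other members. The 3 1V209-Cho-Lip barcodes among them held 1, 6 and 14 of the 22 Tcf21 UMIs of that library. Of 7 measured alveolar fibroblast markers, 5 were higher and 0 lower: Inmt, with 129 and 36 UMIs, Tcf21, with 22 and 2 UMIs, Npnt, Pdgfra and Mettl7a1. The whole list summed to 4096 CPM in the 1V209-Cho-Lip members and 1963 CPM in the PBS members. Without the 4 barcodes with 10 or more Inmt UMIs, the immediate-early list had 11 of 17 higher (median 1.22), the NF-kB list 5 of 6 higher (1.38), the collagen list 11 of 18 lower (-1.01) and the actin filament list 3 of 15 lower (-0.80). Endothelial markers summed to 542 and 524 CPM, with Cdh5, Vwf, Tie1 and Plvap at 0, and the mesothelial and skeletal muscle lists were at 0 in both libraries.

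Within each library, contractile genes outside the rule were at lower levels in members rich in Fos. The smooth-muscle-like subgroup held 34 of the 57 PBS UMIs of Tpm2 and 29 of the 60 of Myl9, against 4 of 24 and 9 of 32 in the 1V209-Cho-Lip library. The 1V209-Cho-Lip member with 31 Acta2 UMIs had 2 Fos UMIs, and the PBS members with 59 and 40 had 1 and 14. The split was not run without that subgroup, so its part in this order was not tested. Fos reached 10 UMIs in 22 of 34 1V209-Cho-Lip members and 14 of 32 PBS members. Myl9 was at 228 CPM in these members of the 1V209-Cho-Lip library, against 750.2 CPM in the other 12, and at 325 CPM in those of the PBS library, against 1789 CPM in the other 18. Tpm2 was at 171 against 563 CPM in the 1V209-Cho-Lip library and 441 against 1478 CPM in the PBS library, and Mylk, the myosin light chain kinase, at 342 against 675 and 465 against 1206 CPM. Acta2, a rule gene, was at 532 against 2776 and 2090 against 5601 CPM.

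Hhip showed no such order. It was at 2278 against 1876 CPM in the 1V209-Cho-Lip library and 2857 against 3384 CPM in the PBS library, and without the deepest barcode of each library at 2278 against 2583 and 4192 against 3384 CPM, so both orders turned. Myl9, Tpm2 and Mylk kept theirs without those barcodes. In the 1V209-Cho-Lip library the deepest barcode had 8 Fos UMIs, so leaving it out did not touch the Fos-rich values. Barcodes of that library with 26 and 35 Inmt UMIs had 60 and 36 Fos UMIs and stayed on the Fos-rich side. The split was not run without them, so their part in the order was not tested. All 11 PBS UMIs of Cebpd were in members rich in Fos. Fos-rich members were deeper, with median depths of 2049 against 1456 UMIs in the 1V209-Cho-Lip library and 1988 against 1506 UMIs in the PBS library, and the threshold of 10 UMIs was chosen after the values were seen.

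Other mesenchymal barcodes of the same libraries shared part of this pattern. They were 49 and 50 barcodes with pericyte genes, 425 and 240 with alveolar fibroblast genes and 53 and 56 with adventitial fibroblast genes. The ratio of Cebpd was 15.9 in the members, 9.93 in pericytes, 20.1 in alveolar and 17.7 in adventitial fibroblasts, with overlapping intervals, and 22.3 over all kept barcodes. That of Col3a1 was 0.126 in the members (0.0768 to 0.198), 0.265 in pericytes (0.106 to 0.58), 0.308 in alveolar (0.264 to 0.358) and 0.808 in adventitial fibroblasts (0.712 to 0.917). Eln was at 0.362, 0.867, 0.229 and 0.24 in the same order, the pericyte value resting on 8 and 11 UMIs.

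Some ratios differed between the members and at least 1 of these groups. Ccn2 was at a ratio of 0.0839 in the members but 1.31 (0.938 to 1.83) in pericytes and 1.33 (1.18 to 1.49) in alveolar fibroblasts, and at 0.619 (0.428 to 0.889) in adventitial fibroblasts. The value in the members rests on 9 PBS barcodes, with 28 of 62 UMIs in the deepest, which was rich in Inmt. Its log2 ratio was -2.80 without the deepest barcodes but 0.26 with 2 marker genes. Mt1 was at 3.19 (2.61 to 3.91) in the members, 2.21 (2.04 to 2.40) in alveolar and 2.64 (2.42 to 2.89) in adventitial fibroblasts. Only in pericytes did it go the other way, at 0.53 (0.275 to 0.979), from 16 and 36 UMIs. Pde10a, a phosphodiesterase that breaks down cyclic nucleotides, had 53 and 7 UMIs in the members (ratio 6.56, 2.97 to 17.1). The pericytes had 0 and 2 UMIs of it and the alveolar fibroblasts 4 and 1. Adventitial fibroblasts had 5 and 5 (ratio 0.899, 0.207 to 3.91), an interval that overlaps that of the members. Such counts are too few to set a ratio beside that of the members. With 1 library per group, none of these differences between cell types was tested.

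**Figure D5:**
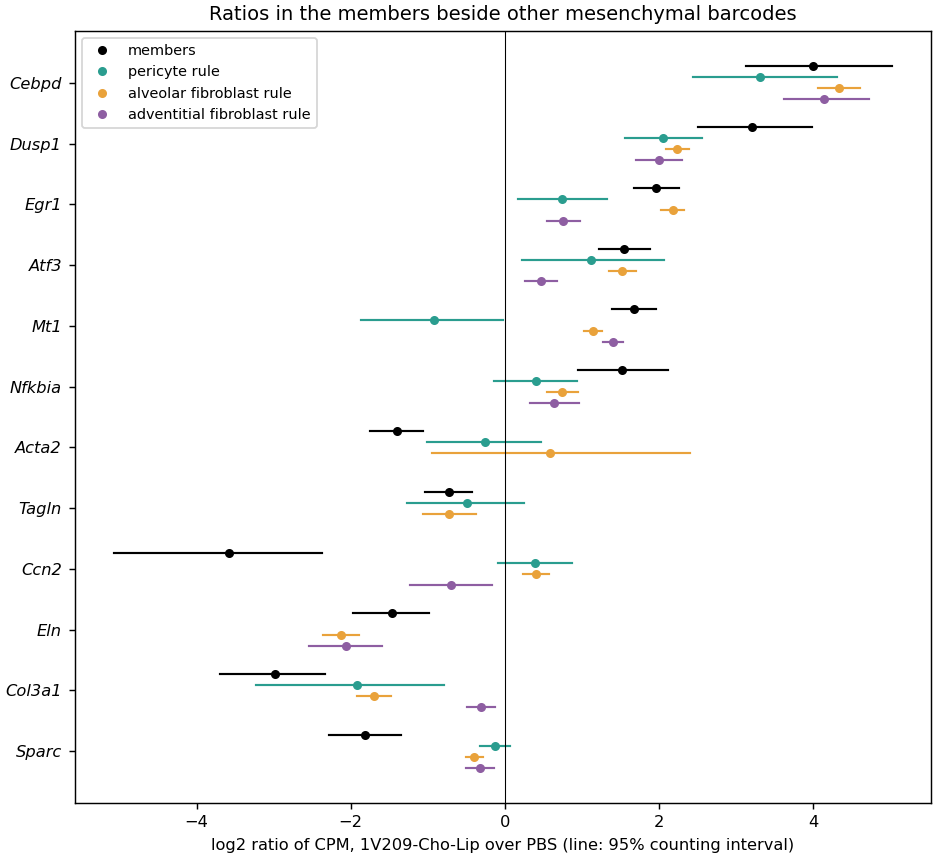
Log2 ratio of CPM, 1V209-Cho-Lip over PBS, of 12 genes in the members and in barcodes chosen by pericyte, alveolar fibroblast and adventitial fibroblast genes, with 95% counting intervals as lines. Values from under 20 UMIs are not drawn. Cebpd lies to the right in all 4, while Ccn2 lies far to the left in the members, somewhat to the left in adventitial fibroblasts and to the right in the other 2. In the members Ccn2 had 6 and 62 UMIs, 28 of the 62 in 1 barcode.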

How the data were processed

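The authors deposited raw UMI counts per gene and barcode from 10x libraries, made with Cell Ranger 9.0.1, per the file headers, on mm10, per the submitters' processing notes. The release of the annotation is not stated in labels or headers. GENCODE vM21 matched 52081 of the 55357 gene identifiers. The libraries held 54843992 and 58156102 UMIs (1V209-Cho-Lip and PBS). Members were found by the rule in the report, their counts summed per library and scaled to CPM. Ratios carry exact conditional binomial intervals and shares exact Clopper-Pearson intervals at 95%. Only the gene ratio intervals were run on simulated counts, which had counting error but no uneven spread of UMIs over barcodes. These cover counting error only. Genes needed 20 UMIs over both libraries, and 0.5 counts were added on the log2 scale. The text names the 12 genes furthest above and the 12 furthest below among those with 40 UMIs and 50 CPM, leaving out mitochondrial, ribosomal, haemoglobin and predicted genes and those under 20% of the library's own level, then the rule's genes and, per list, those with most UMIs and the extreme ratios. Other genes named were chosen after their values were seen. The members and lists were chosen with earlier results of these data known. Doublets were called with Scrublet in scanpy 1.11.5 (10.6% and 13.1% of kept barcodes, 2 and 0 members) and left in. Members were clustered with Leiden (leidenalg 0.10.2). TMM scaling came from edgeR 4.0.16. Analyses used Python 3.11.15, SciPy 1.17.1 and pandas 2.3.3. Some items are not reported here.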

Additional observations from a re-analysis of the deposited data

How the results depend on the processing

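No paired analysis was possible because each group was 1 library. The ratio of shares was 0.61 with 4 marker genes and stayed within its main interval under the other settings. Genes at least 2-fold higher and lower numbered 375 and 394 with 10 UMIs per gene, 42 and 36 with 50 UMIs, 458 and 235 with 2 marker genes, 33 and 56 with 4, 57 and 42 after thinning to 1000 UMIs, 46 and 30 without barcodes holding other cell types' UMIs (8 and 9 members left), and 50 and 40 with Myh11. The cause of these moves was not tested. Chosen after seeing the data, 91 were lower without the deepest barcodes and 84 higher without Inmt-rich ones. In the largest subgroup alone (11 and 17 members), 25 were higher and 38 lower, with the immediate-early median at 0.18 and the collagen median at -0.061. Without the smooth-muscle-like subgroup these counts and medians stayed near their main values. The immediate-early median was 0.22 with 4 marker genes and 0.66 with Myh11. Over all alternatives run, the medians ran from 0.18 to 1.46 for immediate-early, 0.52 to 1.58 for NF-kB, -1.01 to -0.061 for collagen and -0.84 to -0.09 for actin filament genes.

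Among called named genes and list medians, reversals, whose cause was not tested, were these log2 values. With 2 marker genes, Ccn2 was at 0.26, Col1a1 at 0.33, ion channels at -0.010, complement at 0.41, heat shock at 0.40, antigen presentation at 0.14 and muscle regulators at -0.29. With 4, Mfap5 was at 0.031 and myosin genes at 0.082. Cd74 was at -0.57 with Hhip detected and -0.50 without doublets. By the mean of each barcode's CPM, complement was at 0.29, antigen presentation at 0.34 and TGF-beta genes at 0.086. Pdia6 was at 0.40 in the largest subgroup. Outside that set or under 20 UMIs, Ifi27l2a was at 0.75, Cxcl12 at 0.35 and C3 at 1.33 without the deepest barcodes. Myh11 and Actg2, not called over all members, ran from -1.40 to 1.64 and from -0.62 to 1.39. Antigen presentation was at 0.26 after thinning, 0.20 with Myh11, 0.42 without the deepest barcodes and 0.55 without Inmt-rich ones. Intermediate filaments were at 0.21 after thinning and 0.18 with Myh11, complement at 0.58 without the deepest barcodes and 0.63 without Inmt-rich ones, and heat shock at 0.15 with 10 UMIs per gene. TMM scaling moved all log2 ratios by 0.08 and median-of-ratios scaling by 0.03. Depth limits the comparison: at 20 to 40 UMIs a gene's interval reached a median of 1.29 log2 units to either side.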

Other observations

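Of 14 measured heat shock and unfolded protein genes, 2 were higher, 4 lower and 8 between, beside 11% and 11.8% of all measured genes higher and lower. Hspa5, an endoplasmic reticulum chaperone, with 48 UMIs in the 1V209-Cho-Lip members and 109 UMIs in the PBS members, Hsp90b1, with 47 and 108 UMIs, and Pdia3, with 32 and 72 UMIs, were lower, as was the small heat shock protein Cryab with 9 and 21 UMIs. Between 41 and 55 of the PBS UMIs of each of the first 3 were in 1 barcode. Dnajb1, a co-chaperone, was higher with 39 and 13 UMIs, and Hspb1 with 17 and 4 UMIs. Aldh1a1, which makes retinoic acid, had 30 and 2 UMIs in 7 of 34 and 1 of 32 members.

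Among measured genes, 3 were at 0 in the PBS members. Eif3f, a subunit of a translation initiation factor that all cells use, had 26 UMIs in 14 of 34 1V209-Cho-Lip members, and against 3 counts over the PBS members it was at least 7.51-fold higher. Over all kept barcodes it stood at 274 CPM in the 1V209-Cho-Lip library and 47.9 CPM in the PBS library, and in B-cell barcodes its ratio was 8.86 (7.89 to 9.98). The other 2 were Nebl, with 26 UMIs, 13 of them in 1 barcode, and Gcc1, with 20 UMIs.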
